A study of Homo sapiens with 18 samples.

Results

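In HK-2, a human cell line derived from the proximal tubule of the kidney, gene expression was measured on 9 arrays of cells given vehicle, and in these biological replicate 3 was set against biological replicates 1 and 2 within each time. The 3 arrays of replicate 3 came from cells kept in the control vehicle for 12, 24 or 48 h, and the 6 arrays of replicates 1 and 2 came from cells kept in the same vehicle for the same times. The other 9 of the 18 arrays were of cells exposed to CsA (the usual abbreviation of cyclosporin A), with the same 3 times and replicate numbers. All cells grew in serum-free medium with epidermal growth factor, hydrocortisone, insulin, transferrin and selenite, were of one laboratory, and were plated a day before treatment near confluence. The labels give neither the vehicle's name nor a dose, passage or date, and do not say whether arrays of one number came from one culture. If they did, replicate 3 was 1 culture followed over time and was set against 2 others, and the p-values below measure the spread between arrays, not between cultures. Replicate 3 was singled out because it had been seen to lie apart on these arrays, so its distance from the others is a description and only the genes that make it up are new. Of the genes named by a probe set, 10569 reached a mean of 4 on the log2 scale in replicate 3 or in replicates 1 and 2 and were tested; 10306 of them reached it in both groups, 112 only in replicate 3 and 151 only in replicates 1 and 2.

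Proximal tubule cells are polarized: cadherin junctions and claudins seal them to each other, and brush border enzymes and transporters take up and break down filtered solutes. When tubular cells meet microbial products or injury, the transcription factor NF-kappaB enters the nucleus and switches on chemokines, which draw leukocytes, and cytokines such as interleukin 6, together with its own inhibitors. Cultured tubule lines keep only some of the proximal program, and loss of E-cadherin is a known change of such cells in culture.

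Replicate 3 differed from both other replicates throughout the array. Over the tested genes, the SD of its log2 difference from their mean was 0.768 at 12 h, 0.776 at 24 h and 0.646 at 48 h, while the SD of the difference between replicates 1 and 2 was 0.223, 0.255 and 0.49 at the same times. Averaged over the times, 1531 genes (14.5%) were higher and 1685 (15.9%) lower in replicate 3 at an adjusted p under 0.05 in limma (30.4% together), 369 (3.49%) and 491 (4.65%) of them past 2-fold and 37 (0.350%) and 35 (0.331%) past 8-fold. Replicate 3 lay above both other replicates at all 3 times for 19.6% of the tested genes and below both for 20.3%; 13.5% and 14.7% were also called. The median difference over all tested genes was -0.009. Of the 501 tested genes in the lists described here, 13 passed the filter only through replicate 3 and 14 only through replicates 1 and 2. Such genes had to differ. They are kept in the counts of their lists, as are the markers that belong to a list. Leaving out replicate 1 or replicate 2 left 578 higher and 709 lower, or 561 higher and 739 lower; leaving out the replicate 3 array of 12 h or of 24 h left 786 and 854, or 687 and 858. With the replicate number as a random block there were 2362 higher and 2410 lower. Array medians and shares of probe sets at 4 or more lay close together on all 18 arrays (2.858 to 2.924, and 38.2% to 39.1%). The 3-prime minus 5-prime difference of the ACTB control probe sets was 0.86, 0.785 and 0.78 in replicate 3 at 12, 24 and 48 h, within the 0.675 to 1.207 of replicates 1 and 2 (exact permutation test over 27 relabelings within times, two-sided p = 0.593, smallest p possible 0.037); for GAPDH the same test gave p = 0.667. All levels are GCRMA log2 values. Those below about 4 lie near background, where GCRMA compresses differences, so a difference that ends there has a direction but no resolved size.

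The genes proposed as markers of replicate 3 were 5 that were higher and 1 that was lower in it. Replicate 3 lay outside both other replicates at all 3 times for each of the 6. Among all tested genes it lay above both at all 3 times for 19.6% and below both for 20.3%. They were chosen with earlier results of these arrays known, so their values are a description and no p is given for them. CLEC4E (chromosome 12), a C-type lectin receptor of microbial glycolipids known mainly from macrophages, stood at 12.54, 12.05 and 11.68 in replicate 3 at 12, 24 and 48 h, against a lowest, median and highest value of 2.84, 3.15 and 3.43 in replicates 1 and 2. It was near background on all 6 arrays of the other replicates, with a difference of 8.96 ± 0.19 (SE). It passed the filter on low values only through replicate 3, so it had to differ. MMP1 (chromosome 11), the interstitial collagenase, had 13.63, 12.68 and 11.22 in replicate 3, against 3.09, 5.70 and 7.28 in replicates 1 and 2. Its level was lower at each later time in all 3 replicates, and the difference was 7.25 ± 0.31. LCN2 (chromosome 9), the siderophore-binding lipocalin used as a marker of tubular injury, had 10.34, 11.06 and 12.42 in replicate 3, against 2.76, 3.53 and 7.73 in replicates 1 and 2. The highest of the other values was replicate 2 at 48 h, and the difference was 7.24 ± 0.76.

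IL6 (chromosome 7), the cytokine interleukin 6, had 12.17, 11.75 and 9.77 in replicate 3, against 3.69, 4.11 and 6.14 in replicates 1 and 2, a difference of 6.76 ± 0.66. CCL20 (chromosome 2), a chemokine for cells with the receptor CCR6, had 13.65, 13.40 and 11.77 in replicate 3, against 5.29, 6.46 and 10.16 in replicates 1 and 2. For both genes replicate 3 was lowest at 48 h while replicate 2 was highest there, so the groups came closest at that time. The CCL20 difference was 6.17 ± 0.98, and without replicate 1 it was 5.19 and no longer past the threshold. CDH1 (chromosome 16), the adhesion protein E-cadherin of epithelial junctions, had 3.06, 3.05 and 3.86 in replicate 3, against 7.33, 7.83 and 8.76 in replicates 1 and 2. It lay at or near background on all 3 arrays of replicate 3 and was lower by 4.65 ± 0.14. It passed the filter only through replicates 1 and 2, so it had to differ. Less RNA per cell and fewer cells with that RNA cannot be told apart on these arrays.

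**Figure D1:**
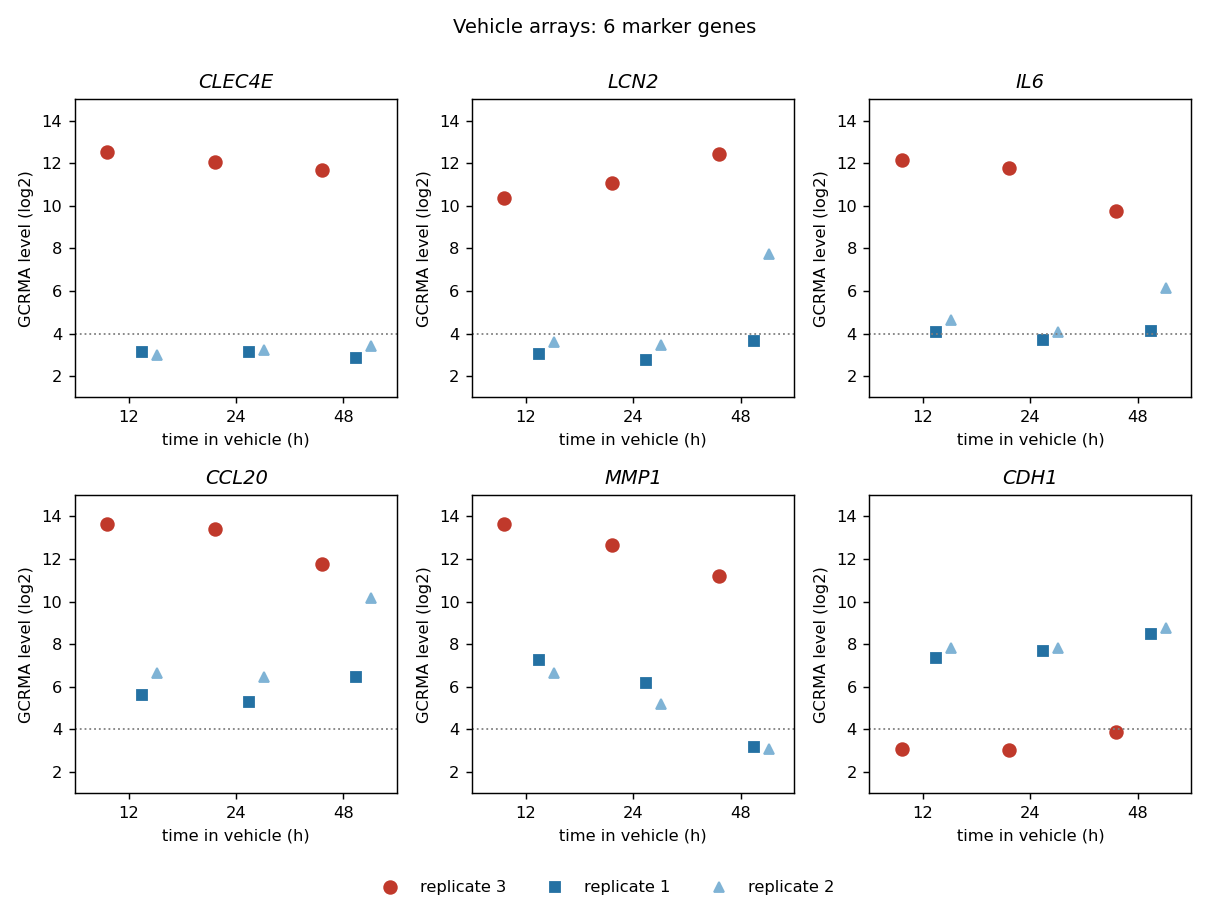
GCRMA level (log2, y axis) of the 6 markers on each of the 9 vehicle arrays by time in hours (x axis), with replicate 3 as circles, replicate 1 as squares and replicate 2 as triangles, and the level of 4 dotted. Circles lie above all squares and triangles for CLEC4E, LCN2, IL6, CCL20 and MMP1 and below them for CDH1, and the replicate 2 triangles at 48 h are raised for LCN2 (7.73), IL6 (6.14) and CCL20 (10.16).

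The 15 largest rises, chosen by their difference among called genes that lay above both other replicates at every time, held these 5 markers and 10 more. Of the 15, 8 passed the filter only through replicate 3 (CLEC4E, TNFAIP6, PI3, SCG5, SHISA2, MARCHF3, CDKN2B and XDH), and their values are a description. TNFAIP6, a secreted hyaluronan-binding protein, had 10.84, 10.47 and 8.36 in replicate 3, against 2.50, 2.55 and 4.17 in replicates 1 and 2, a difference of 6.91 ± 0.32. PI3, the elastase inhibitor elafin, had 9.48, 9.60 and 5.53, against 2.31, 2.33 and 2.35. INHBA, a subunit of activin, had 10.01, 10.34 and 7.87, against 3.08, 4.41 and 5.66. None of these groups overlapped, and each of the 3 genes was lowest at 48 h in replicate 3. CXCL5, a neutrophil chemokine, differed by 5.33 ± 0.53, PTX3, a secreted pentraxin that binds microbes, by 4.71 ± 0.55, and SCG5, a secretory-granule protein, by 5.53 ± 0.70. The other rises were SHISA2 (4.86), MARCHF3, a membrane-bound ubiquitin ligase (4.36), CDKN2B, an inhibitor of cyclin-dependent kinases (4.31), and XDH, xanthine dehydrogenase (4.19). The 15 were chosen for their size on these arrays, and the 8 named above had to differ. Passing the threshold again without replicate 1 or 2 is thus no further support. CCL20 did not pass it without replicate 1.

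The 15 largest falls held CDH1 and several transporters and membrane enzymes of the kidney tubule. Of the 15, 6 passed the filter only through replicates 1 and 2 (CDH1, SLC17A1, CFI, TMED6, RASSF10 and SLC44A3). FGFR2, a receptor of fibroblast growth factors, had 4.48, 4.92 and 4.42 in replicate 3, against 8.94, 9.22 and 9.48 in replicates 1 and 2, and fell by 4.61 (SE 0.12). SLC17A1, a sodium-dependent phosphate and urate transporter of the proximal tubule, had 2.36, 3.72 and 2.76, against 6.72, 6.97 and 7.41. CFI, the protease that inactivates complement C3b, had 2.83, 2.64 and 2.65, against 6.43, 6.67 and 6.90. All 3 genes kept a gap of more than 2-fold between the nearest values of the groups. ENPEP, aminopeptidase A of the brush border, fell by 3.81 (SE 0.24), SLC6A13, a transporter of gamma-aminobutyric acid and taurine, by 4.47 (SE 0.34), and RAB17, a small GTPase of epithelial membrane traffic, by 3.58 (SE 0.28). The remaining falls were TMEM37 (-5.29), SLC44A5 (-4.81), TMT1A (-4.68), TMED6 (-3.89), CA11 (-3.88), RASSF10 (-3.86), PRKCB, a protein kinase C (-3.71), and SLC44A3 (-3.70). A second probe set of TMEM37, at 4.33 in both groups, gave a difference of 0.00. The 15 falls were chosen for their size on these arrays, and the 6 named above had to differ. Their passing the threshold again without replicate 1 or 2 is thus no further support.

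Chemokines and NF-kappaB regulators showed the inflammatory side. Of 19 chemokine genes, 8 were tested, with a median difference of 3.06. Of these, 5 were higher (62.5%, against 14.5% of all tested genes) and 1 was lower (12.5%, against 15.9%). The other 11 were below 4 on all 9 arrays, among them CXCL1, CXCL6, CXCL10, CXCL11 and CCL5. The 5 that rose were CCL20, CXCL5, CXCL3, CXCL2 and CXCL8, all ligands of neutrophil or CCR6-bearing cells. CXCL8, interleukin 8, had 14.90, 14.89 and 14.48 in replicate 3, against 11.99, 12.32 and 13.38 in replicates 1 and 2, a difference of 2.32 ± 0.28. CXCL2 had 13.65, 13.39 and 12.90, against 8.51, 9.23 and 11.63, a difference of 3.81 ± 0.55, with no overlap for either gene. CXCL3 had 10.14, 9.98 and 7.60, against 4.21, 4.67 and 7.80, so that at 48 h it lay below replicate 2. CX3CL1, the membrane-bound chemokine fractalkine, fell by 0.55 (SE 0.17), and CCL2, a monocyte chemokine, differed by -1.07 (SE 0.44, adjusted p = 0.101). Without replicate 1, 3 chemokines were called higher.

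Among 16 tested components and regulators of NF-kappaB, 10 were higher (62.5%, against 14.5% of all tested genes) and 1 lower (6.25%, against 15.9%). The median was 0.60, and without replicate 1 there were 5 called higher. Several of these are feedback inhibitors that the factor itself is known to induce. TNFAIP3, the ubiquitin-editing inhibitor A20, had 9.34, 9.36 and 8.47 in replicate 3, against 5.30, 5.61 and 7.62 in replicates 1 and 2, a difference of 3.09 ± 0.47. NFKBIA, which holds the factor in the cytoplasm, had 12.26, 12.26 and 11.25, against 10.14, 10.33 and 10.99, a difference of 1.53 ± 0.28. Neither gene overlapped between the groups, though both came close to replicate 2 at 48 h. TNIP1, a partner of A20, differed by 2.06 ± 0.28, and ZC3H12C, a ribonuclease of the Regnase family, by 1.90 ± 0.20. The subunits themselves differed less, with NFKB1 at 0.80 ± 0.12, RELA at 0.35 ± 0.10 and NFKB2 at 0.46 ± 0.21 (adjusted p = 0.131). CYLD, a deubiquitinase, was called lower (-0.46), but another of its probe sets gave 0.12.

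Promoters of some genes that rose are shown for the DNA letters upstream of their starts. All those shown hold a match to an NF-kappaB consensus, which most of the largest rises did not, so they are chosen examples. Each sequence runs 5′ to 3′ on the gene's strand over the 200 bases before the start that RefSeq annotates (GRCh38.p14), and capitals mark matches on either strand to the 10-base NF-kappaB consensus. At CXCL2 and CXCL5 the site matches on both strands, with the second match overlapping the first.
CCL20: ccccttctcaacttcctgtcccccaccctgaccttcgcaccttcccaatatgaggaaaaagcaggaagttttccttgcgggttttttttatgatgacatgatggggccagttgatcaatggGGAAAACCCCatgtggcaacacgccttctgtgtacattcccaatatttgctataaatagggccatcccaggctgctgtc
CXCL2: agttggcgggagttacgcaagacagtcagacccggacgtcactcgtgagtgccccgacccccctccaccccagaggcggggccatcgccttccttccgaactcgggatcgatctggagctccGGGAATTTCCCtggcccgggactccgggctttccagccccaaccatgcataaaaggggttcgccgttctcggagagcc
CXCL5: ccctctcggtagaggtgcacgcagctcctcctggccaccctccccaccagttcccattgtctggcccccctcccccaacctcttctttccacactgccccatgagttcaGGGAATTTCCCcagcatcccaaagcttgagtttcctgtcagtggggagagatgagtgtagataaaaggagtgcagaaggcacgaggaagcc
IL6: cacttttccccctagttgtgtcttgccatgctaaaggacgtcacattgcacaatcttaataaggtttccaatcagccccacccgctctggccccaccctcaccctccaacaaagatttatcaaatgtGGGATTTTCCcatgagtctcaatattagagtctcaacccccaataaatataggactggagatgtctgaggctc
LCN2: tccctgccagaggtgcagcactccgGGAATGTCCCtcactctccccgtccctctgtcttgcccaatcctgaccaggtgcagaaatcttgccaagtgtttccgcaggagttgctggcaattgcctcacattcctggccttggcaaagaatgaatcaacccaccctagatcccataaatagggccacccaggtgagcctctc
TNFAIP3: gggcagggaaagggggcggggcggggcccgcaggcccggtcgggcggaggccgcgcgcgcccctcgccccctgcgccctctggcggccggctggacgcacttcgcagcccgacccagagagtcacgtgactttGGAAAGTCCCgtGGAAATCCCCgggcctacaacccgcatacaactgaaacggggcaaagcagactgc
The matches began 79 bases before the start at CCL20, 78 at CXCL2, 91 at CXCL5, 73 at IL6 and 175 at LCN2, and at TNFAIP3 there were 2, at 67 and 55. The windows lie at chr2:227813642-227813841 (CCL20, + strand), chr4:74099196-74099395 (CXCL2, - strand), chr4:73998678-73998877 (CXCL5, - strand), chr7:22727000-22727199 (IL6, + strand), chr9:128149253-128149452 (LCN2, + strand) and chr6:137867059-137867258 (TNFAIP3, + strand). A match was found in 8.14% of all 35116 promoter windows of that length and in 9.37% of the 6181 tested genes with 1 annotated start. Of the 15 largest rises, 13 had 1 annotated start in the table and 5 of them held a match (LCN2, IL6, CCL20, CXCL5 and PTX3); of the 15 largest falls, 9 had one and 0 held a match. A match describes letters and shows no binding.

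Cytokines other than IL6 differed less. Of 12 tested, with IL6 counted among them, 6 were higher (50%, against 14.5% of all tested genes) and 2 lower (16.7%, against 15.9%). The median was 0.44, and without replicate 1, 3 were called higher. EBI3, a subunit of the interleukin 12 family, differed by 1.54 ± 0.12, IL32 by 1.31 ± 0.38, TNFSF9, a ligand that costimulates T cells, by 1.11 ± 0.12, and LIF, of the interleukin 6 family, by 1.05 ± 0.21. IL1B and IL15 were lower (-0.76 and -0.65), and TNF and CSF3 were below 4 on all 9 arrays. Of 20 tested receptors, 4 rose and 4 fell, which are shares near the 14.5% and 15.9% of all tested genes. LIFR, the receptor of LIF, fell by 2.01 (SE 0.38) and IL6R by 0.99 (SE 0.17), while IL6ST, the shared signalling chain of both, differed by -0.28 (SE 0.11, adjusted p = 0.0854). IFNGR1 was the receptor gene with the largest rise (1.56 ± 0.22). Without replicate 1, 0 receptors were called higher and 2 lower, and without replicate 2, 1 and 0.

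Among the acute-phase and innate defence genes that could be tested, more were higher than lower. Of 46 on the array, 22 were below 4 on all 9 arrays, among them SERPINA3, HP, ORM1, S100A8 and S100A9. Of 23 tested, 11 rose (47.8%, against 14.5% of all tested genes) and 3 fell (13%, against 15.9%). These counts include markers and largest rises named above. Of the 23, 3 passed the filter only through replicate 3 and 1 only through replicates 1 and 2, and these had to differ. The median was 0.59, and without replicate 1 the counts were 9 and 2. Beside CLEC4E, LCN2, PI3 and PTX3, SLPI, a secreted protease inhibitor, differed by 2.85 ± 0.15, IRAK3 and IRAK2, kinases of the interleukin 1 and Toll-like receptor pathway, by 2.83 ± 0.25 and 2.81 ± 0.20, and SOD2, the mitochondrial superoxide dismutase, by 1.47 ± 0.23. C3, the central complement protein, had 12.65, 13.11 and 13.58 in replicate 3, against 11.23, 11.36 and 12.17 in replicates 1 and 2, with no overlap. The 3 that fell were CFI, DEFB1, an epithelial defensin (-1.60), and WFDC2, a secreted protein of epithelia (-1.42). In the JAK-STAT list 4 of 10 tested rose (40%), namely PIM2 (2.48), CEBPB (1.39), JAK1 (1.27) and SOCS1 (1.15), and 1 fell (10%). That was STAT3, the main transducer of interleukin 6 signals (-0.37), for which another probe set gave 0.12. SOCS3, a feedback inhibitor induced by interleukin 6, differed by -0.17 (SE 0.11, adjusted p = 0.27).

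Interferon-response genes were lower more often than higher at the earlier times. Of 33 tested, 12 were lower (36.4%, against 15.9% of all tested genes) and 4 higher (12.1%, against 14.5%). Their median was -0.25, and 7 were lower without replicate 1 as well as without replicate 2. The median was -0.32 at 12 h, -0.30 at 24 h and 0.02 at 48 h, and in the CsA arrays 7 were lower and 7 higher, with a median of -0.04. IFITM1, a membrane protein that blocks virus entry, had 7.75, 8.01 and 9.27 in replicate 3, against 10.47, 10.92 and 10.97 in replicates 1 and 2, and fell by 2.49 (SE 0.29). IFI44L had 4.92, 4.45 and 5.97, against 7.27, 7.62 and 8.55, and fell by 2.68 (SE 0.15). Neither gene overlapped between the groups at any time. IFITM2 and IFITM3 fell by 1.97 and 1.90, and IFIH1, IFIT1 and RIGI, sensors or effectors against foreign RNA, by 1.17, 1.16 and 1.14. The 4 that rose were IRF1 (1.21), GBP1 (1.05), OAS3 (0.64) and IFI6 (0.53). The IFITM genes are close paralogs whose probe sets can cross-hybridize, so they are not separate observations.

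Secreted proteases and the plasminogen activators were mostly higher. Of 16 tested, 8 rose (50%, against 14.5% of all tested genes) and 1 fell (6.25%, against 15.9%). The median was 0.69, and 5 rose without replicate 2. PLAT, tissue plasminogen activator, had 10.34, 10.22 and 7.62 in replicate 3, against 4.01, 6.33 and 7.31 in replicates 1 and 2. The groups did not overlap, and the gene was lower at 48 h in all of them, with a difference of 3.46 ± 0.22. PLAUR, the receptor of urokinase, differed by 1.91 ± 0.20, PLAU, urokinase, by 1.18 ± 0.29, MMP7, matrilysin, by 1.75 ± 0.31, and SERPINE2, an inhibitor of plasminogen activators, by 1.56 ± 0.13. MMP14 was called higher (0.90), while another of its probe sets gave -0.08. The metalloproteinase inhibitors TIMP1 and TIMP2 differed by -0.26 (SE 0.08, adjusted p = 0.0505) and -0.21 (SE 0.17, adjusted p = 0.388). In prostanoid and leukotriene metabolism, 3 of 8 tested genes (37.5%) fell (HPGD, ALOX5 and AKR1C3, the last by 1.52). In the same list 1 rose (12.5%), the prostaglandin E synthase PTGES2 (0.89). HPGD, which degrades prostaglandins, had 8.69, 8.86 and 10.21 in replicate 3, against 11.67, 12.07 and 12.23 in replicates 1 and 2. ALOX5, the lipoxygenase that starts leukotriene synthesis, had 2.81, 2.61 and 4.90, against 6.37, 6.91 and 7.51. It passed the filter only through replicates 1 and 2, so it had to differ. HPGD fell by 2.77 (SE 0.30) and ALOX5 by 3.44 (SE 0.46), while PTGS2, the inducible cyclooxygenase, was below 4 on all 9 arrays.

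**Figure D2:**
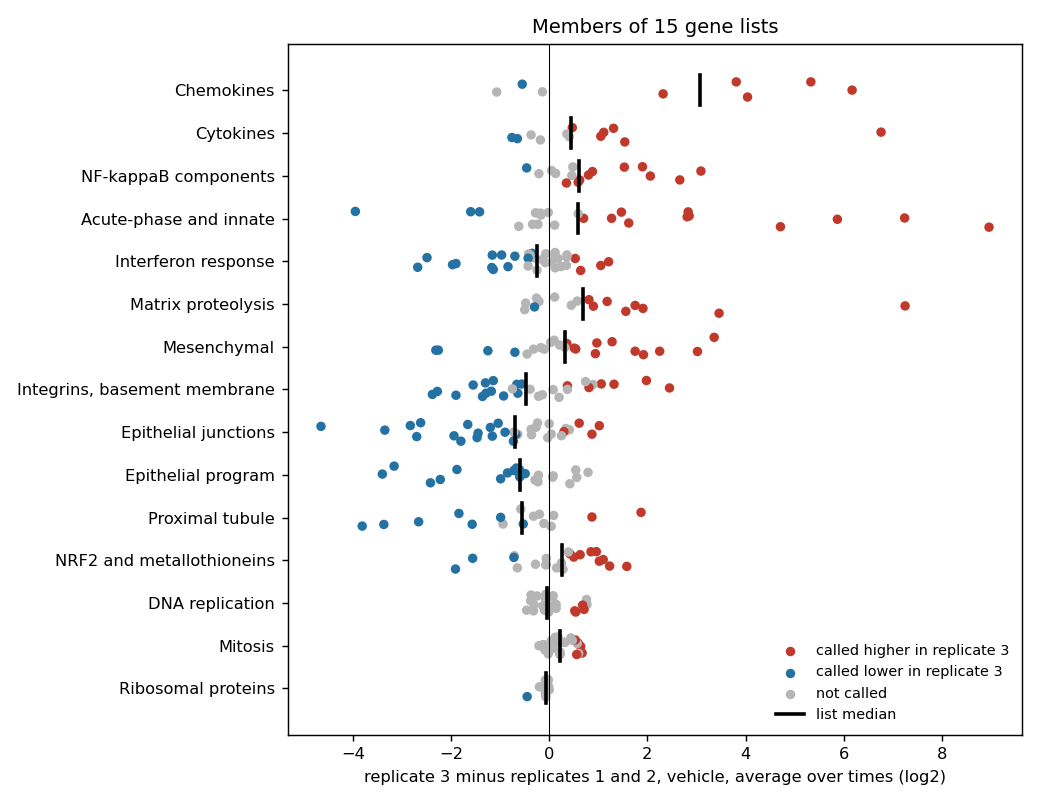
Log2 difference of replicate 3 from replicates 1 and 2 in vehicle, averaged over times (x axis), for each tested member of 15 gene lists (rows); points are genes, red called higher, blue called lower and grey not called, and the black bar is the list median. Chemokines lie to the right with a median of 3.06, epithelial junctions and the epithelial program to the left with medians of -0.70 and -0.61, and ribosomal proteins lie close to 0.

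The epithelial side was lower in replicate 3. Of 32 tested genes of epithelial junctions, 16 fell (50%, against 15.9% of all tested genes) and 4 rose (12.5%, against 14.5%). The median was -0.70, and 14 fell without replicate 2. CDH3, P-cadherin, had 4.60, 4.64 and 4.60 in replicate 3, against 7.78, 7.94 and 8.34 in replicates 1 and 2, and fell by 3.35 (SE 0.12). CLDN2, the claudin that forms the cation-permeable pore of the proximal tubule, had 7.37, 7.60 and 6.04, against 8.77, 10.01 and 10.33, and fell by 2.70 (SE 0.11). The values of each gene were apart at every time. CGN and CGNL1, cytoplasmic proteins of tight junctions, fell by 2.83 and 1.94, PPL, a desmosomal linker, by 2.62, CDH16, kidney cadherin, by 1.80, and EPCAM, an epithelial adhesion protein, by 1.45. TJP1 and CTNNB1, junction proteins shared by many cell types, differed by -0.24 (SE 0.13, adjusted p = 0.188) and 0.00 (SE 0.15, adjusted p = 0.993). The 4 that rose were CLDN11 (1.02), JUP (0.87), CLDN12 (0.61) and CLDN1 (0.30), and 0 rose without replicate 2.

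In a wider epithelial list, 13 of 22 tested genes fell (59.1%, against 15.9% of all tested genes) and 0 rose, with a median of -0.61. Without replicate 1, 5 fell. MUC1, a transmembrane mucin, had 5.80, 5.77 and 7.79 in replicate 3, against 9.26, 9.94 and 10.17 in replicates 1 and 2, and fell by 3.40 (SE 0.29). MAL, a protein of apical membrane traffic, had 9.01, 9.41 and 8.0, against 11.50, 12.04 and 12.18, and fell by 3.16 (SE 0.20). Neither gene overlapped. ESRP1, which directs epithelial splicing, fell by 2.42, CD24 by 2.22 and FXYD2, a subunit of the sodium pump in the kidney, by 1.88. The keratins KRT8 and KRT7 fell by 0.85 and 0.61, and KRT18 differed by -0.29 (SE 0.20, adjusted p = 0.315). Several of these were nearer to the other replicates at 48 h: the list's median difference was -0.87 at 12 h, -0.58 at 24 h and -0.24 at 48 h.

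Mesenchymal genes were mixed. Of 23 tested, 11 rose (47.8%, against 14.5% of all tested genes) and 4 fell (17.4%, against 15.9%). The median was 0.32, and without replicate 2 the counts were 5 and 4. CD44, the hyaluronan receptor, had 13.58, 13.23 and 12.24 in replicate 3, against 9.16, 9.80 and 9.90 in replicates 1 and 2, a difference of 3.36 ± 0.15. THBS2, a matrix thrombospondin, had 6.41, 6.52 and 6.16, against 3.22, 3.38 and 3.43, a difference of 3.02 ± 0.10. Both were apart at every time, but THBS2 passed the filter only through replicate 3, so it had to differ. The repressors of CDH1, ZEB1 and ZEB2, differed by 1.28 ± 0.14 and 1.75 ± 0.26, LOX, which crosslinks collagen, by 2.25 ± 0.24, and VIM, vimentin, by 0.36 ± 0.10. S100A4, often used as a marker of fibroblasts, had 7.09, 7.25 and 6.52, against 8.23, 9.41 and 9.62, and fell by 2.26 (SE 0.18). CDH11, SPARC and VCAN fell by 2.31, 1.25 and 0.70. With values below 4 raised to 4, the CDH11 difference was -0.62 (adjusted p = 0.273 in limma). N-cadherin, CDH2, had 8.98, 9.08 and 9.12, against 8.91, 9.01 and 9.21, a difference of 0.03 ± 0.09 (adjusted p = 0.861). SNAI1, SNAI2 and TAGLN were below 4 on all 9 arrays, the first and second of these being other repressors of CDH1.

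Genes of integrins and the basement membrane fell more often than they rose. Of 28 tested, 13 were lower (46.4%, against 15.9% of all tested genes) and 6 higher (21.4%, against 14.5%), with a median of -0.48. Without replicate 2, 6 were lower and 3 higher. All 5 tested chains of collagen IV, the network of basement membranes, fell: COL4A4 by 2.38, COL4A3 by 2.28, COL4A1 by 1.29, COL4A5 by 1.18 and COL4A2 by 0.93. COL4A3 passed the filter only through replicates 1 and 2, so it had to differ. COL4A3 and COL4A4 lay at 2.94, 2.90 and 3.34, and at 4.07, 3.56 and 4.96, in replicate 3, against lowest, median and highest values of 4.26, 5.21 and 6.51, and of 5.81, 6.78 and 7.32, in replicates 1 and 2. Laminin chains were split, LAMB3 being higher (1.98) and LAMA5 and LAMA1 lower (-1.36 and -1.30). So were integrins, with the collagen receptors ITGA1 and ITGA2 higher (2.45 and 1.32) and ITGB8 and ITGB4 lower (-1.90 and -1.55). Among 9 tested adhesion proteins of the immunoglobulin kind, 3 rose (33.3%) and 1 fell (11.1%). The rises were CD47, CD58 and ICAM1 (1.17, 0.90 and 0.83), and the fall was NECTIN3 (-0.96).

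The labelled cell type was checked against defining genes of the proximal tubule. Of 39 on the array, 22 were below 4 on all 9 arrays, among them AQP1, LRP2, CUBN and ANPEP, so several of these were not measurable in any of the 3 replicates. Of the 16 tested, 7 fell (43.8%, against 15.9% of all tested genes) and 2 rose (12.5%, against 14.5%). The median was -0.56, and 5 fell without replicate 2. PDZK1, a scaffold of brush border transporters, had 7.11, 6.78 and 7.56 in replicate 3, against 10.13, 10.45 and 11.05 in replicates 1 and 2, and fell by 3.37 (SE 0.22). SLC4A4, the basolateral sodium bicarbonate cotransporter, had 9.34, 9.34 and 8.89, against 11.20, 11.84 and 12.64, and fell by 2.66 (SE 0.27). Neither gene overlapped. GPX3, the plasma glutathione peroxidase made in the proximal tubule, fell by 1.84 and SLC3A1, a cystine transporter subunit, by 1.57. PAX8, a kidney lineage factor, was called higher (0.87), with another probe set at -0.22, and CYP24A1, which inactivates vitamin D, was higher by 1.87 ± 0.23. The 3 tested genes of the distal nephron also fell: SCNN1A, the epithelial sodium channel alpha subunit, by 3.02, TFCP2L1 by 2.92 and AQP3 by 2.40. Of these 3, 1 passed the filter only through replicates 1 and 2 and had to differ.

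Tubular injury genes were mixed. Of 22 tested, 6 rose (27.3%, against 14.5% of all tested genes) and 2 fell (9.09%, against 15.9%). The median was 0.10, and without replicate 1 the counts were 3 and 1. Beside LCN2, the rises were ATF3 (2.62), SOX9 (1.98), GDF15 (1.17), ICAM1 (0.83) and KLF6 (0.74). CLU, clusterin, fell by 1.11 (SE 0.16). HAVCR1, the injury marker KIM-1, had 10.89, 10.72 and 10.31 in replicate 3, against 10.11, 10.85 and 11.28 in replicates 1 and 2, which overlapped, with a difference of -0.14 ± 0.18 (adjusted p = 0.589). SPP1, osteopontin, differed by 0.20 ± 0.08 (adjusted p = 0.103).

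Growth factor pathways held changes in both directions. In the TGF-beta and activin list, 8 of 23 tested genes rose (34.8%, against 14.5% of all tested genes) and 6 fell (26.1%, against 15.9%). The median was 0.02, and without replicate 2, 5 rose and 5 fell. Next to INHBA, GREM1, a secreted BMP antagonist, differed by 3.68 ± 0.48 and PMEPA1, a feedback inhibitor induced by TGF-beta, by 1.56 ± 0.09, while the ligand TGFB2 fell by 2.40 (SE 0.30). The receptor TGFBR1 was higher (0.79) and TGFBR2 lower (-0.81), and the BMP targets ID1 and ID2 were lower (-0.88 and -1.17). Of 15 genes of the EGF pathway, 5 rose (33.3%) and 2 fell (13.3%), and without replicate 1 the counts were 2 and 1. The ligands EREG, HBEGF and BTC differed by 2.58 ± 0.31, 1.50 ± 0.29 and 0.80 ± 0.23, and the receptor ERBB2 fell by 0.92 (SE 0.14). With values below 4 raised to 4, BTC differed by 0.66 (adjusted p = 0.0703 in limma). In the Wnt list, 2 of 11 tested rose (18.2%) and 1 fell (9.09%). WNT5A rose by 2.50 (SE 0.17) and FZD7 by 1.59 (SE 0.38), and FZD2 fell by 1.43 (SE 0.16).

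Metallothioneins, zinc-binding proteins, rose within the NRF2 and metal list. Of its 23 tested genes, 9 rose (39.1%, against 14.5% of all tested genes) and 3 fell (13%, against 15.9%). The list's median was 0.25, and 6 and 1 were called without replicate 1. MT1G, MT1X, MT1F, MT2A and MT1E differed by 1.58, 1.23, 1.10, 1.02 and 0.96; they are near-identical paralogs and their probe sets can share RNA. The NRF2 targets AKR1C1 and AKR1C2, themselves close paralogs, fell by 1.91 and 1.56, while GCLM and SRXN1 rose by 0.85 and 0.63. The shares called in the next lists can be read against the 14.5% higher and 15.9% lower of all tested genes. Of 15 ribosomal protein genes 0 rose and 1 fell (RPL3, -0.45), and the list median was -0.07. Of 25 mitosis genes 5 rose and 0 fell, by 0.53 to 0.67 (MKI67, AURKB, PLK1, CDC20 and CCNA2), and 1 was called without replicate 2. Of 27 replication genes 4 (14.8%) rose and 0 fell (CDC45, CDC6, CCNE1 and RFC5), with a median of -0.05 and 0 called without replicate 2. Of 19 cholesterol synthesis genes 5 (26.3%) rose and 1 fell (TM7SF2, -2.37), and 1 and 1 were called without replicate 2. Of 25 hypoxia genes 3 rose and 2 fell, and 0 were called without replicate 1. In antigen processing 1 of 12 rose and 2 fell.

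Markers of other cell types were mostly near background. Of 19 leukocyte genes on the array, 18 were below 4 on all 9 arrays, among them PTPRC, the pan-leukocyte antigen CD45, and the macrophage and lymphocyte genes CD53, TYROBP, CSF1R and CD3E. The mean level of the list was 2.49 to 2.64 in replicate 3 and 2.45 to 2.52 in replicates 1 and 2. The 1 that was tested, LAPTM5, a lysosomal protein of blood cells, had 5.97, 4.84 and 3.25 in replicate 3, against 2.55, 2.56 and 2.57 in replicates 1 and 2, a difference of 2.12 ± 0.40, and it passed the filter only through replicate 3. Without replicate 1 the difference was 2.13 (adjusted p = 0.0698) and without replicate 2 it was 2.12 (adjusted p = 0.0724), in limma. Of 12 endothelial genes 11 were below 4 on all arrays. The other, ESAM, was lower (-0.93), but it passed the filter only through replicates 1 and 2 and had to differ. With values below 4 raised to 4 its difference was -0.73 (adjusted p = 0.0588 in limma). Of 11 fibroblast genes 6 were below 4 on all arrays, PDGFRA, PDGFRB and THY1 among them. In that list 4 were tested and COL3A1 was lower (-0.63). The fibroblast list averaged 4.62 to 4.66 in replicate 3 and 4.35 to 4.92 in replicates 1 and 2. Of 3 tested podocyte genes 1 fell (PTPRO, -0.56), and 2 tested squamous genes gave 0 calls.

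Time by time, replicate 3 lay nearer to replicate 2 at 48 h than before, and replicates 1 and 2 lay farther apart. Over the tested genes the SD of the difference of replicate 3 from replicate 2 was 0.788, 0.808 and 0.634 at 12, 24 and 48 h, and from replicate 1 it was 0.764, 0.764 and 0.743. Replicate 3 had 563 genes (5.33%) higher and 756 (7.15%) lower at 12 h, 591 (5.59%) and 681 (6.44%) at 24 h, and 334 (3.16%) and 344 (3.25%) at 48 h, or 12.5%, 12.0% and 6.41% in all, each time with 1 array against 2. Of the 3216 genes called in the average, 2082 (64.7%) had a smaller difference at 48 h than at 12 h, and 3216 had the same sign when the 48 h arrays were left out. For the 369 genes called higher past 2-fold the median difference was 1.60, 1.75 and 1.25 at 12, 24 and 48 h. Against replicate 1 alone it was 1.64, 1.75 and 1.33, and against replicate 2 alone 1.59, 1.75 and 1.21. For the 491 genes called lower past 2-fold the median difference was -1.63, -1.55 and -1.26. Against replicate 1 alone it was -1.52, -1.45 and -1.41, and against replicate 2 alone -1.68, -1.65 and -1.08, so these genes came nearer mainly to replicate 2. Both sets were chosen on these arrays. Between 12 and 48 h the median change of the 8 tested chemokines was -1.27 in replicate 3 and 0.83 in replicates 1 and 2.

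**Figure D3:**
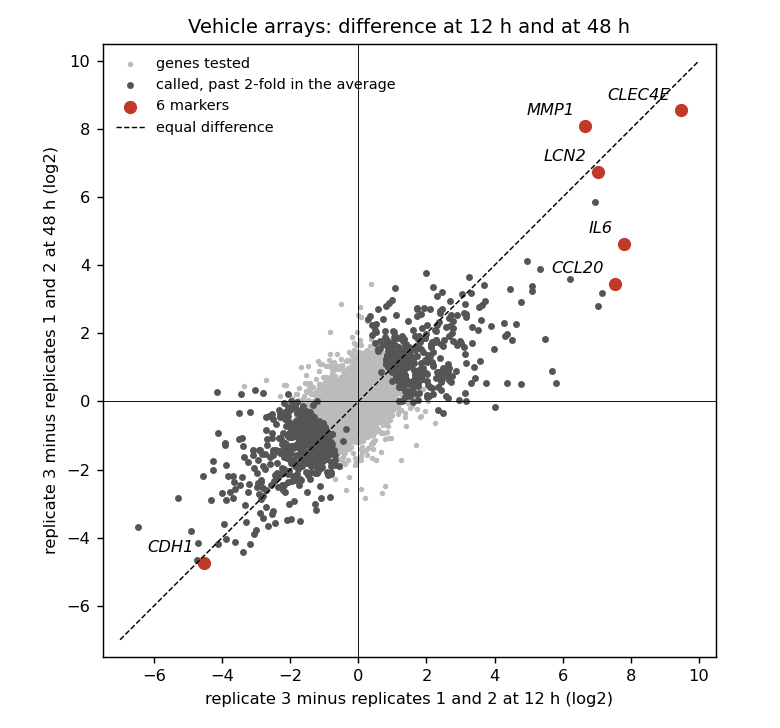
Log2 difference of replicate 3 from replicates 1 and 2 at 12 h (x axis) and at 48 h (y axis) for the 10569 tested genes, with the called genes past 2-fold in dark grey, the 6 markers in red and equality dashed. IL6 (7.80 and 4.63) and CCL20 (7.53 and 3.46) lie below the dashed line, MMP1 (6.67 and 8.10) above it, and CDH1 (-4.52 and -4.75) close to it.

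A test of the change of the difference with time called 19 genes (0.180% of those tested, with 1222 at an unadjusted p under 0.05), and 17 of them were closer at 48 h than at 12 h. Of the 19, 14 passed the filter only through replicate 3, so the values below are a description. The test's spread came from the pair of arrays of replicates 1 and 2 at each time, which is small where both lie near background. NAV3, a microtubule-binding protein, had 8.22, 7.75 and 2.93 in replicate 3 at 12, 24 and 48 h, against 2.36, 2.39 and 2.41 in replicates 1 and 2, and its difference at 48 h minus that at 12 h was -5.28 ± 0.19. GPR183, a receptor of oxysterols, had 7.56, 6.74 and 3.27, against 2.71, 2.73 and 2.85, and VNN1, pantetheinase, had 6.98, 6.43 and 3.20, against 2.61, 2.63 and 2.69. ENC1, an actin-binding kelch protein, had 9.87, 8.69 and 5.64, against 5.34, 5.83 and 5.89. At 48 h replicate 3 lay near the other replicates in all 4 genes, and the difference narrowed for PI3 as well (48 h minus 12 h, -3.96).

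SCG5 narrowed from the other side. It had 9.72, 9.38 and 9.03 in replicate 3, against 2.67 and 2.67 at 12 h, 2.68 and 2.57 at 24 h, and 6.01 and 6.48 at 48 h in replicates 1 and 2. Thus replicates 1 and 2 were higher at 48 h while replicate 3 was nearly level, and the difference changed by -4.26 ± 0.31. ENPP2, autotaxin, was lower in replicate 3 at 12 and 24 h (6.44 and 6.49) and reached 9.23 at 48 h, against 9.42, 9.75 and 10.03 in replicates 1 and 2. HEY1, a repressor downstream of Notch, was higher in replicate 3 by more at 48 h than at 12 h (48 h minus 12 h, 2.27), with 3.31, 3.29 and 5.75 in replicate 3, against 2.23, 2.30 and 2.45. With values below 4 raised to 4, the change between 12 and 48 h was -2.94 for SCG5 and 1.75 for HEY1, and neither passed the threshold. For ENC1 and ENPP2, which have no values below 4, it stayed at -4.19 and 3.17, while the adjusted p in limma was 0.0621 and 0.0616.

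**Figure D4:**
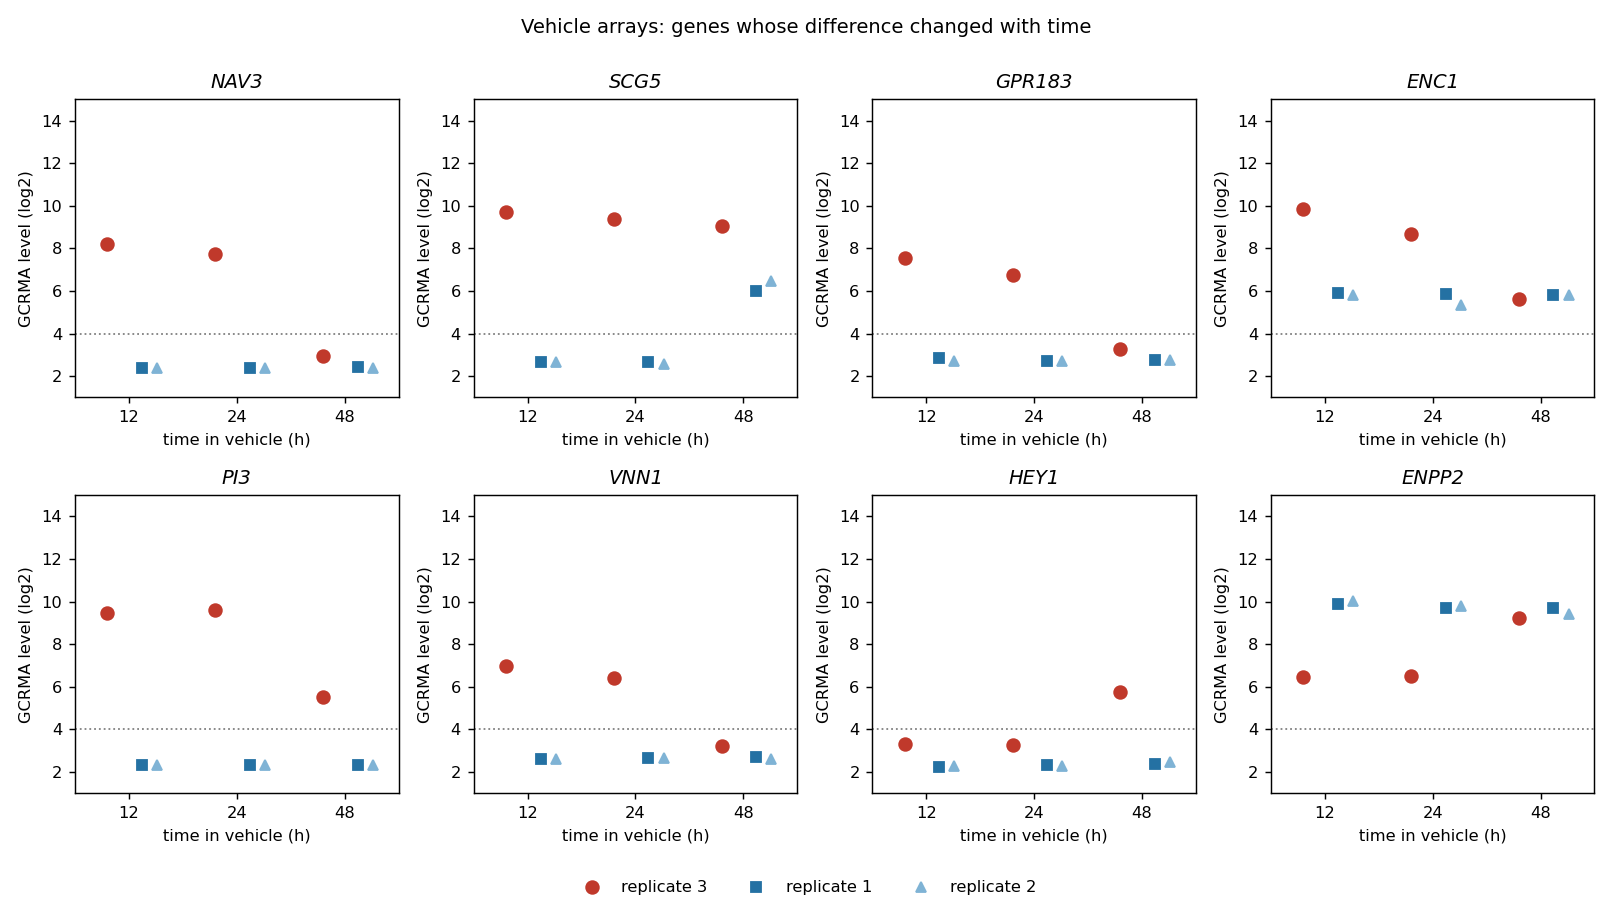
GCRMA level (log2, y axis) on each of the 9 vehicle arrays by time in hours (x axis) for the 8 genes named from the test by time, with replicate 3 as circles, replicate 1 as squares, replicate 2 as triangles and the level of 4 dotted. For NAV3, GPR183, ENC1 and VNN1 the circle at 48 h (2.93, 3.27, 5.64 and 3.20) lies near the other symbols, and for SCG5 the squares and triangles rise at 48 h.

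The same split was then made among the 9 arrays of CsA-treated cells, which had no part in the choice of the genes. The replicate numbers may mark the same cultures as in vehicle, so these arrays may repeat the same cultures and not add new ones. Replicate 3 had 1194 genes (11.3%) higher and 1719 (16.3%) lower than replicates 1 and 2 under CsA (27.6% together). Of the 3216 genes called in vehicle, 3196 (99.4%) had the same sign under CsA, against 85.5% of all tested genes, and 2228 were called there in the same direction, which is 69.3% of the vehicle calls and 76.5% of the CsA calls. All 860 called genes past 2-fold kept their sign, and 786 were called. CLEC4E had 12.47, 12.14 and 9.57 in replicate 3 under CsA at 12, 24 and 48 h, and between 2.74 and 3.30 in replicates 1 and 2, a difference of 8.38 ± 0.42. CDH1 had 3.46, 4.11 and 5.26, and between 7.64 and 9.23 in replicates 1 and 2, and fell by 4.12 (SE 0.12).

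Under CsA several of the genes high in replicate 3 were lower at 48 h than in vehicle. TNFAIP6 had 10.57, 9.89 and 3.80 in replicate 3, against 10.84, 10.47 and 8.36 in vehicle, and IL6 had 11.85, 11.87 and 6.53, against 12.17, 11.75 and 9.77 in vehicle. PI3 had 9.38, 9.31 and 2.42 under CsA, against 9.48, 9.60 and 5.53 in vehicle. LCN2 did not share this, with 10.54, 10.87 and 12.72 under CsA, against 10.34, 11.06 and 12.42 in vehicle. These chosen examples set 1 array against 1 at each time, and the difference between treatments was not tested. All 30 genes of the largest rises and falls had the same sign in both sets of arrays. Of the rises 8, and of the falls 6, passed the filter through 1 vehicle group only. The cultures may also be the same, so this shared sign is a description.

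**Figure D5:**
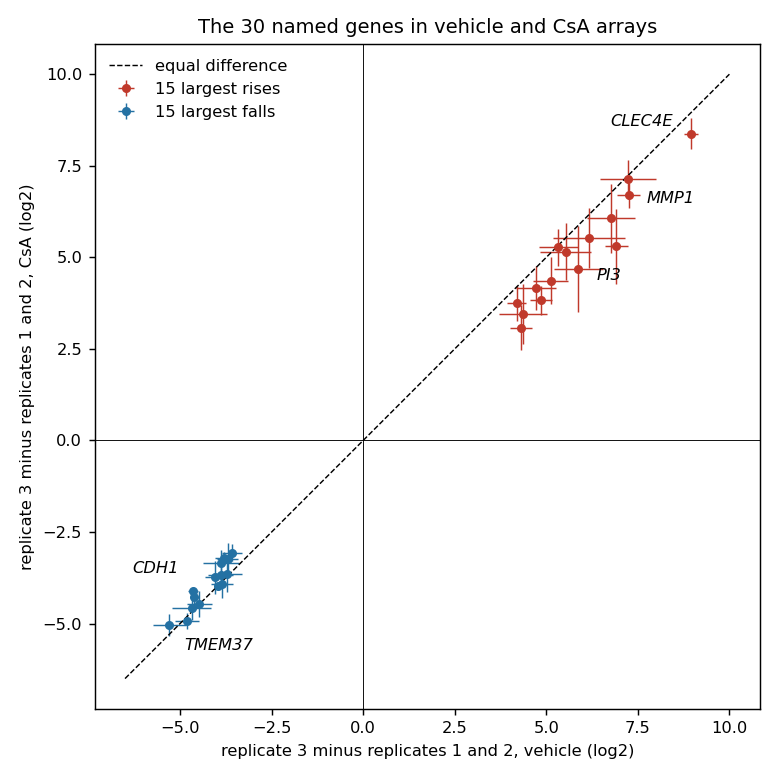
Log2 difference of replicate 3 from replicates 1 and 2, averaged over times, in vehicle arrays (x axis) and in CsA arrays (y axis) for the 15 largest rises (red) and 15 largest falls (blue) chosen in vehicle; bars are standard errors and the dashed line is equality. All points lie in the quadrants of equal sign, with CLEC4E at 8.96 and 8.38 and TMEM37 at -5.29 and -5.04.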

How the data were processed

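The authors deposited 1 table covering 18 arrays and 54675 probe sets. GCRMA is named, with no version, per the submitters' processing notes; the deposited values were read as log2 from their range, since no label names the base. Which arrays GCRMA processed jointly was not stated in the labels. The number of arrays limits the precision.

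Samples were grouped by the labels' treatment, time and replicate number. Of the probe sets, 41091 had 1 gene symbol in the platform annotation (1801 had several, 11721 were unnamed here). Each gene was represented by its brightest probe set over the vehicle arrays. Genes entered if the mean of replicate 3 or of replicates 1 and 2 reached 4. Limma 3.58.1 in R 4.3.3 (lmFit, eBayes, Benjamini-Hochberg threshold 0.05) fitted time plus a replicate 3 term to the 9 vehicle arrays (5 residual degrees of freedom). Differences within each time and their F test came from a fit of 6 means (3 residual degrees of freedom), and the CsA arrays were fitted alike. Errors are standard errors. These fits were tested on simulated data.

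Named genes were the 6 markers, the 15 largest rises and 15 largest falls among called genes outside both other replicates at all 3 times, members of the gene lists, and up to 6 genes each way from the F test. Members, lists and markers were chosen with earlier results of these data known. Promoter sequences (RefSeq) were matched by symbol. Python 3.11.15, pandas 2.3.3 and matplotlib 3.10.9 made tables and figures. Alternatives changed the filter, floor, normalization, probe set rule, model, replicate block and arrays left out.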

Additional observations from a re-analysis of the deposited data

Results flagged for a closer look

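Among the 36 genes named by rule, 9 had 1 array of replicates 1 and 2 apart from the other 5 arrays of that group, by a gap over range above Dixon's critical value. The 6 arrays span 3 times, and chance flags about 1 in 20 groups. Replicate 2 at 48 h was the high array for LCN2 (7.73, the others 2.76 to 3.66), CCL20 (10.16, the others 5.29 to 6.63) and PTX3 (9.48, the others 6.40 to 7.46). Under CsA, replicate 2 at 48 h had 7.92 for LCN2, 8.59 for CCL20 and 8.72 for PTX3, and replicate 1 at 48 h had 5.62, 7.16 and 7.11. The other high arrays were replicate 1 at 12 h for SHISA2 (4.03) and GPR183 (2.85), replicate 2 at 12 h for XDH (2.29) and replicate 1 at 48 h for SLC44A3 (8.15). The low arrays were replicate 1 at 24 h for MARCHF3 (2.09) and replicate 2 at 24 h for ENC1 (5.34). The values of GPR183, XDH and MARCHF3 lie near background.

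The difference between replicate 3 and replicates 1 and 2 changed with time for 8 named genes, by limma's F test. Of these, NAV3, SCG5, GPR183, PI3, VNN1 and HEY1 were measured above the filter only through replicate 3, with 1 array at each time. As the difference at 48 h minus that at 12 h, it was -5.28 for NAV3, -4.26 for SCG5, -4.26 for GPR183, -4.19 for ENC1, -3.96 for PI3, -3.82 for VNN1, 2.27 for HEY1 and 3.17 for ENPP2. Only HEY1 of these 8 was farther from the other replicates at 48 h than at 12 h.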

How the results depend on the processing

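The 1531 higher and 1685 lower genes stayed within 1.5 times under the other filters, floor, normalizations, probe set rule and fits tried, apart from the replicate block as a random effect (2362 and 2410, consensus correlation -0.199). With the replicate block taken by averaging each number over times they were 1403 and 1665. Pairing by number: across genes the difference between replicates 1 and 2 correlated at 0.311 (12 and 24 h), -0.168 (12 and 48 h) and -0.17 (24 and 48 h), so it was not shown for these numbers, while the difference of replicate 3 from their mean, the contrast itself, correlated at 0.918, 0.663 and 0.695. Leaving out arrays or a replicate number gave 561 to 1826 higher and 709 to 1993 lower. With the 12 and 24 h arrays alone, an alternative chosen after seeing the data, there were 2255 and 2407. With CsA means added to the spread there were 873 and 1145 at 12 h, 934 and 1032 at 24 h, and 606 and 614 at 48 h, and 179 genes changed with time; with low values raised to 4, 6 did. Under CsA, leaving out replicate 1 or 2 gave 263 to 272 higher and 487 to 491 lower, and the replicate block averaged over times gave 819 and 1368. None of 258 named or listed genes reversed under any alternative run; the number no longer past the threshold was 107 without replicate 2, 96 without replicate 1, 85 and 73 without the replicate 3 array of 24 h and of 12 h, and 55 with no filter. The cause was not tested.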

Other observations

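The primary transcript of a microRNA known as an NF-kappaB target and a brake on interleukin 1 and Toll-like receptor signalling was read from the brighter of 2 probe sets; it was chosen after its values were seen. MIR146A had 7.66, 8.21 and 8.46 in replicate 3 at 12, 24 and 48 h, against a lowest, median and highest value of 3.16, 4.55 and 6.36 in replicates 1 and 2. The groups did not overlap, and the difference was 3.60 ± 0.46 (SE). Because of that choice no p is given for it. The other probe set lay near background in both groups (means of 2.28 in replicate 3 and 2.29 in replicates 1 and 2) and gave -0.01. The mature microRNA was not measured. Its RefSeq sequence (chr5:160485372-160485393, + strand, GRCh38.p14) is shown because the brighter probe set rose, with the seed, bases 2 to 8, in capitals.
hsa-miR-146a-5p: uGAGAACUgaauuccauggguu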
